A study of Mus musculus with 64 samples.

Results

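Natural killer (NK) cells without the prostaglandin E2 (PGE2) receptors EP2 and EP4 were exposed to medium conditioned by tumour cells (CM), and the genes that moved with CM in spite of the missing receptors are described here. The comparison was defined by genotype and treatment alone: the 6 CM libraries of EP2/EP4KO cells against their 6 untreated libraries, 12 of the 64 libraries in the series, each arm with 3 unstimulated and 3 stimulated libraries. Each effect below is the mean of the effect in the unstimulated and in the stimulated state, so that stimulation is held fixed, and each state is also given alone.

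EP2/EP4KO cells came from GzmbCrePtger2-/-Ptger4fl/fl mice, in which EP2 (gene Ptger2) is lacking throughout and a Cre recombinase driven by granzyme B (Gzmb) deletes the floxed Ptger4 gene (EP4), which it can do only in cells that have made granzyme B. EP2KO cells came from Ptger2-/-Ptger4fl/fl mice, which share both alleles but carry no Cre, and wild-type (WT) cells from C57BL/6J mice. All cells were spleen NK cells expanded for 5 days in low IL-2 with an IL-15 and IL-15 receptor alpha complex. CM was taken from BRAFV600E control tumour cells that make PGE2 and the parallel treatment was PGE2 alone at 100 ng/ml. Total exposure to a treatment was 5 h in both states. For stimulated cells it was made up of 1 h of pretreatment and then 4 h of crosslinking of the activating receptor NK1.1. PGE2-treated EP2/EP4KO cells gave 6 libraries, and EP2KO and WT cells gave 16 CM and untreated libraries each. PGE2-treated EP2KO cells gave 4 libraries in each state, and PGE2-treated WT cells 4 stimulated but only 2 unstimulated ones. The sources used here give neither the ages of the mice nor whether replicates come from separate mice or cultures, so the p-values reflect only how much these libraries vary, part of which may be technical.

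As background, PGE2 is a lipid that many tumours release and that restrains NK cells. EP2 and EP4 are its receptors coupled to the stimulatory G protein, and both raise cyclic AMP (cAMP), which activates protein kinase A and transcription through CREB. Tumour-conditioned medium can also carry cytokines, growth factors such as TGF-beta, lipids and metabolites, and it may be partly depleted of nutrients by the cells that grew in it.

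Expression was read by bulk 3' mRNA sequencing, and levels are CPM, counts scaled to library size and normalised by trimmed mean of M values. The libraries held 1041485 to 1411589 counts with CM and 1263052 to 1693750 counts untreated. Mitochondrial transcripts took 7.11% to 9.86% of their counts. Summed NK markers ran from 6696 to 11135 CPM in CM and from 7492 to 11472 CPM in untreated libraries. Markers of other cells overlapped between the arms: T cell markers summed to 572 to 763 CPM with CM and 604 to 824 CPM untreated, macrophage and dendritic cell markers to 139 to 213 CPM with CM and 143 to 254 CPM untreated, B cell markers to 62.9 to 125 CPM with CM and 65.6 to 102 CPM untreated, and neutrophil markers to 49.9 to 196 CPM with CM and 40.1 to 233 CPM untreated. Of the tested markers 8 of 9 of T cells (median log2 fold change of CM against untreated -0.21) and 8 of 9 of macrophages and dendritic cells (median -0.24) had negative values. The 4 tested erythroid markers had a median of -0.66, but Hbb-bs, Hbb-bt and Klf1 had at most 14 counts summed over an arm. Car2 averaged 691 CPM with CM and 609 CPM untreated. Erythroid markers summed to 487 to 817 CPM with CM and 416 to 760 CPM untreated. None of these markers was called, and their part in the results was not tested. Melanoma markers summed to 0.792 to 6.17 CPM with CM and 2.22 to 7.41 CPM untreated, with 2 of 9 genes at 0 in all 12 libraries. Whether the tumour cells make these transcripts is not known here, so carry-over of tumour RNA was not tested. Stimulated CM replicate 1 stood farthest from its own group, with a chi-square per degree of freedom of 17.96 against replicate 3, while the other 17 replicate pairs of EP2/EP4KO groups ran from 2.71 to 13.3. Calls that were lost without it are named beside the counts of calls.

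The receptor transcripts do not check the deletion, since 3' tags can arise from an allele whose deleted part lies elsewhere. Ptger4 was counted at 31.3, 34.3 and 40.6 CPM in unstimulated CM cells and at 35.9, 40.8 and 46.7 CPM in unstimulated untreated cells of EP2/EP4KO. In stimulated cells it was at 74.5, 63.2 and 88.6 CPM with CM and at 77.3, 68.1 and 75.8 CPM untreated. Ptger2 stood at 3.57, 4.12 and 6.45 CPM in the unstimulated CM libraries and at 3.52, 2.97 and 2.22 CPM in the unstimulated untreated ones. A readout of signalling is the response to PGE2 itself: against untreated, PGE2 changed 0 of 10723 tested genes in EP2/EP4KO cells by edgeR's quasi-likelihood test (0% called, 265 genes at an unadjusted p under 0.05, and 0 genes by DESeq2). The same contrast called 1049 genes in EP2KO cells (9.78%) and 1522 in WT cells (14.2%).

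CM changed 26 genes in EP2/EP4KO cells, 22 higher and 4 lower, which is 0.242% of the 10723 genes tested, 0.205% higher and 0.0373% lower (adjusted p under 0.05, Benjamini-Hochberg over all genes). In EP2KO cells CM called 1446 genes (13.5%), of which 692 were higher (6.45%) and 754 lower (7.03%), and in WT cells 1963 genes (18.3%), of which 913 were higher (8.51%) and 1050 lower (9.79%). The genes that rose in EP2/EP4KO cells included the reticulophagy receptor Retreg1, the TGF-beta-induced membrane protein Pmepa1, the metalloproteinase inhibitor Timp2, the lipid genes Scd2 and Abcg1, the angiogenic factor Vegfa, the cytokine Tgfb1 and the transcription factor Stat3. The 4 that fell were the serpin Serpina3g, the stress-response gene Gadd45g, the ubiquitin ligase subunit Asb2 and the metalloproteinase Adamts14. All 26 had the same sign in both states, and 20 of them had the larger size in stimulated cells. The 26 were chosen by the mean of the unstimulated and stimulated effects, which by itself favours a shared sign. Both counts are therefore only a description, and they do not show that the states agree or differ. Library values did not overlap in either state for 15 of the 22 higher and 3 of the 4 lower genes; over all tested genes, 62 were higher without overlap in both states (0.578%) and 53 lower (0.494%).

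**Figure D1:**
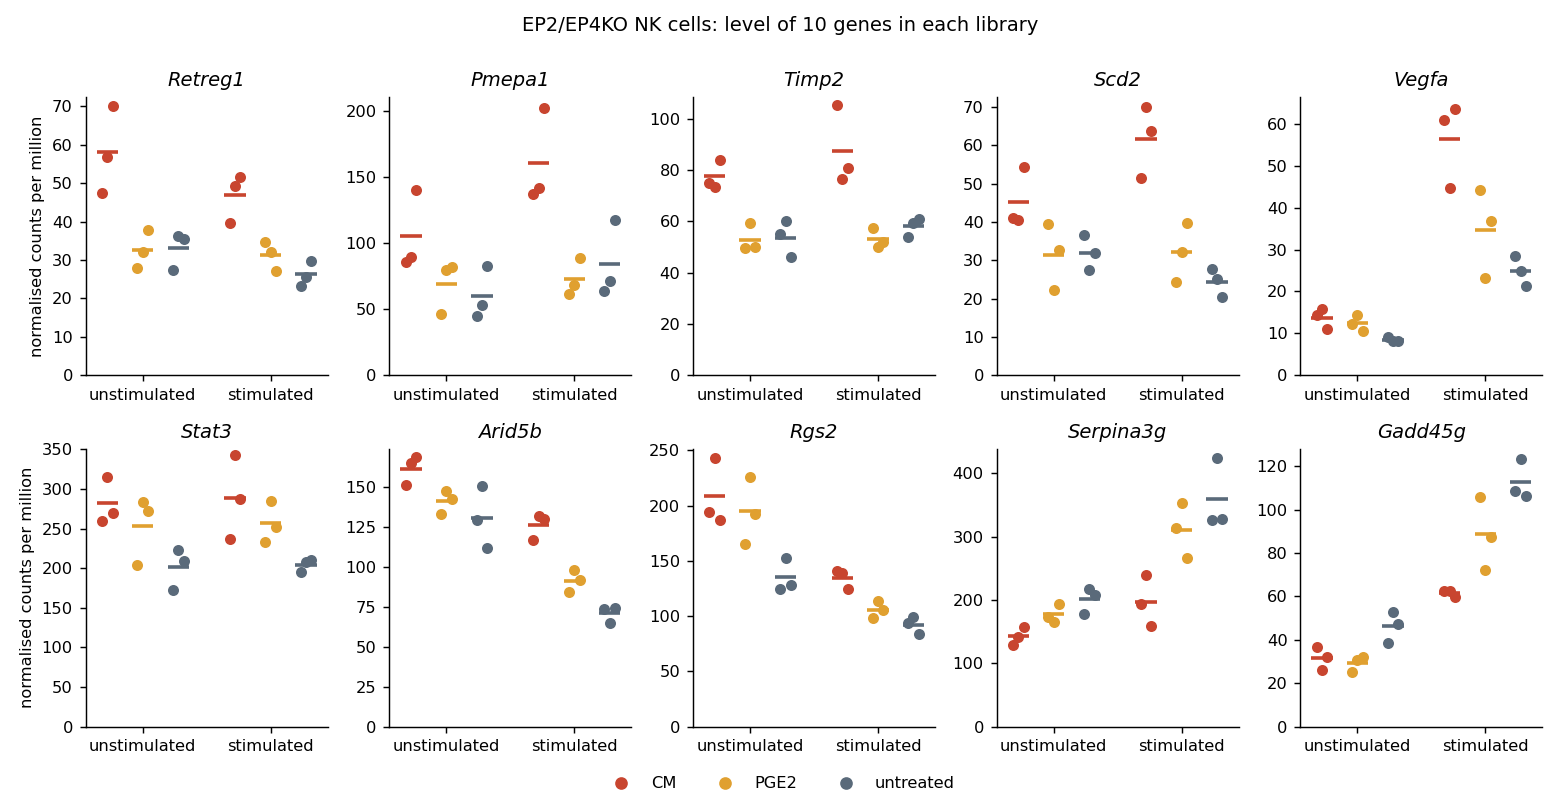
Normalised CPM (vertical axis, starting at 0) of 10 genes in each EP2/EP4KO library, with CM, PGE2 and untreated cells from left to right in each state; points are libraries and bars are means of 3. Retreg1, Pmepa1, Timp2 and Scd2 with CM lie above untreated cells in both states, PGE2 means of Retreg1 and Timp2 lie near the untreated ones, and PGE2 means of Stat3 and Rgs2 lie between those of CM and untreated cells.

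Retreg1, which encodes a receptor that feeds endoplasmic reticulum to autophagosomes, had the smallest p (ENSMUSG00000022270.16, GRCm38 chr15:25843180-25973687, plus strand). It stood at 47.3, 56.9 and 70.1 CPM in unstimulated CM cells, against 27.4, 36.3 and 35.6 CPM in unstimulated untreated cells. With stimulation it stood at 39.6, 49.3 and 51.6 CPM in CM cells, against 23.3, 25.6 and 29.7 CPM in untreated cells. Every CM library was above every untreated library of its state. The log2 fold change was 0.82 ± 0.13 (SE; adjusted p = 5.67e-04), and it was almost equal in the 2 states, at 0.81 unstimulated and 0.83 stimulated.

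Timp2, a secreted inhibitor of matrix metalloproteinases (ENSMUSG00000017466.9, GRCm38 chr11:118301069-118355740, minus strand), was at 75.0, 73.4 and 83.9 CPM in unstimulated CM cells, against 54.9, 60.1 and 46.0 CPM in untreated ones. Stimulated cells had 105, 76.3 and 80.6 CPM with CM, against 54.0, 59.4 and 60.9 CPM untreated. The CM and untreated libraries did not overlap in either state, and the log2 fold change was 0.56 ± 0.12 (adjusted p = 0.0131). Pmepa1, whose product restrains SMAD signalling and is itself induced by TGF-beta (ENSMUSG00000038400.15, GRCm38 chr2:173224458-173276533, minus strand), was at 85.7, 89.2 and 140.1 CPM in unstimulated CM cells, against 45.0, 52.6 and 82.3 CPM in untreated ones. In stimulated cells it was at 137, 142 and 202 CPM with CM, against 63.5, 71.3 and 118 CPM untreated. Replicate 3 was the highest in each of these 4 groups, yet each CM library exceeded all untreated ones of its state, with a log2 fold change of 0.87 ± 0.17 (adjusted p = 0.0104).

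The promoter windows of Retreg1 and Timp2 are shown because these 2 genes also had the smallest p-values when CM was set against PGE2. The windows run from 250 bases before to 50 bases after the RefSeq start (GRCm38.p6), at chr15:25843048-25843347 on the plus strand for Retreg1, whose most upstream of 4 listed starts was taken, and chr11:118355362-118355661 on the minus strand for Timp2. Capitals mark the SMAD box CAGAC and the full cAMP response element TGACGTCA, searched on both strands.
Retreg1: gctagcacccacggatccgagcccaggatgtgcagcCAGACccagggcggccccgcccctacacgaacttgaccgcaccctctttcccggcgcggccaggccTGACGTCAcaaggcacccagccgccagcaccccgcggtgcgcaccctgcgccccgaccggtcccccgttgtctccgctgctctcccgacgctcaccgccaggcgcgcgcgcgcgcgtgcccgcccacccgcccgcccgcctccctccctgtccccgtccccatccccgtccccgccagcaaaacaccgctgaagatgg
Timp2: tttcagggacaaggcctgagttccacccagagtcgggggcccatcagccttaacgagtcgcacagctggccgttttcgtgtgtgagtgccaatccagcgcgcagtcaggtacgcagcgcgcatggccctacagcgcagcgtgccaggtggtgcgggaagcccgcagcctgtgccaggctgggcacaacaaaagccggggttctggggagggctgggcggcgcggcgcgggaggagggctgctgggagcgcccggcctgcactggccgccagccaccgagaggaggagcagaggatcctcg
The Retreg1 window held 1 CAGAC and 1 TGACGTCA, and the Timp2 window held neither, nor the STAT palindrome TTCNNNGAA. Over all 27025 promoters of the same length, CAGAC was found in 49.7%, TGACGTCA in 1.85% and TTCNNNGAA in 8.42%. RefSeq entries were at hand for 20 of the 26 changed genes. Of the 16 higher genes among them, 6 held CAGAC, 1 held TGACGTCA and 2 held TTCNNNGAA; of the 4 lower genes, 3 held CAGAC, 0 held TGACGTCA and 1 held TTCNNNGAA. Among tested genes the shares were 47.0%, 3.65% and 6.73%.

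Lipid genes were among the largest rises. Abcg1, a transporter that exports cholesterol and a textbook target of the liver X receptors (LXR), was at 30.4, 18.5 and 19.4 CPM in unstimulated CM cells, against 13.4, 6.67 and 12.6 CPM in untreated ones. In stimulated cells it was at 10.3, 5.40 and 10.5 CPM with CM, against 4.38, 1.88 and 3.54 CPM untreated, so that its log2 fold change of 1.23 ± 0.28 (adjusted p = 0.033) rests on few counts. Scd2, a stearoyl-CoA desaturase that makes monounsaturated fatty acids, was at 41.1, 40.5 and 54.4 CPM in unstimulated CM cells, against 36.6, 27.4 and 31.9 CPM in untreated ones. With stimulation it reached 51.5, 70.1 and 63.7 CPM with CM, against 27.7, 25.0 and 20.5 CPM untreated, and over both states rose by a log2 fold change of 0.91 ± 0.19 (adjusted p = 0.0144). Neither gene overlapped between CM and untreated libraries in either state. Of 10 tested LXR targets 2 rose and 0 fell, with a median log2 fold change of 0.12, against 0.00 over all tested genes; Abca1, the other cholesterol exporter of the list, was at 0.42 ± 0.49 and did not pass. None of 22 genes of sterol synthesis was called, and their median was -0.16.

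Among secreted factors and signalling genes, Vegfa and Tgfb1 rose. Vegfa was at 14.3, 15.8 and 11.1 CPM in unstimulated CM cells, against 9.15, 8.16 and 8.15 CPM in untreated ones, and at 61.0, 44.7 and 63.7 CPM in stimulated CM cells, against 28.5, 25.0 and 21.2 CPM in stimulated untreated ones. CM and untreated libraries were separate in both states, and the log2 fold change was 0.94 ± 0.20 (adjusted p = 0.0153). Tgfb1, which encodes a cytokine that damps NK cells, was at 289, 368 and 413 CPM in unstimulated CM cells, against 249, 325 and 239 CPM in untreated ones, where the groups overlapped. In stimulated cells it was at 778, 562 and 526 CPM with CM, against 411, 359 and 409 CPM untreated, with no overlap, and over both states the log2 fold change was 0.53 ± 0.12 (adjusted p = 0.0379).

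Stat3, the transcription factor downstream of IL-6 family cytokines and IL-10, had 259.9, 316 and 270.1 CPM in unstimulated CM cells, against 172, 223 and 209 CPM in untreated ones. Stimulated cells had 237, 342 and 288 CPM with CM, against 195, 208 and 209.7 CPM untreated. The groups did not overlap, and the log2 fold change was 0.49 ± 0.11 (adjusted p = 0.0182). Stat3 was the only member of 22 tested STAT3 and gp130 cytokine targets that was called, and the median of that list was 0.09. Rgs2, a brake on G protein signalling that cAMP is known to induce, had 195, 244 and 187 CPM in unstimulated CM cells, against 125, 153 and 128 CPM in untreated ones, and 141, 139 and 125 CPM in stimulated CM cells, against 94.1, 99.4 and 83.6 CPM in stimulated untreated ones. It rose by 0.59 ± 0.13 (adjusted p = 0.0159).

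Arid5b, a DNA-binding cofactor of a histone demethylase, rose by 0.57 ± 0.11 (adjusted p = 0.0104), with 116, 132 and 129.7 CPM in stimulated CM cells, against 73.7, 65.0 and 74.4 CPM in stimulated untreated ones. Its 2 state effects were 0.31 ± 0.16 unstimulated and 0.83 ± 0.17 stimulated. Vgll4, a cofactor that limits TEAD factors, rose by 0.53 ± 0.11, Runx3, a factor of cytotoxic lymphocytes, by 0.51 ± 0.12, and Bcl9l, a beta-catenin coactivator, by 0.95 ± 0.22. Plekha2, a phosphoinositide-binding adaptor, rose by 0.53 ± 0.11, and P2ry10, a receptor for lysophosphatidylserine whose counts may be shared with its near copy P2ry10b, by 0.52 ± 0.12. The cell-surface hyaluronidase gene Cemip2 rose by 0.75 ± 0.17, the galactosyltransferase B4galt1 by 0.46 ± 0.09, and Lrrc8d, a subunit of the volume-regulated anion channel, by 0.82 ± 0.20. Tnrc6b, which acts in microRNA silencing, rose by 0.47 ± 0.11, Qrfp, a neuropeptide precursor, by 0.87 ± 0.21, the phosphatase regulator Ppp1r16b by 0.56 ± 0.14, and N4bp2l1 by 0.86 ± 0.21. Adjusted p-values of these 12 genes ran from 0.0104 for Plekha2 to 0.0476 for Ppp1r16b.

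Of the genes that fell, Serpina3g, an intracellular serpin that inhibits lysosomal cathepsins, had 129, 141 and 158 CPM in unstimulated CM cells, against 178, 217 and 208 CPM in untreated ones. With stimulation it had 194, 239 and 159.6 CPM in CM cells, against 326, 424 and 328 CPM in untreated ones. Within each state no CM library reached an untreated one, and the log2 fold change was -0.68 ± 0.13 (adjusted p = 0.0104); it belongs to a cluster of close paralogs, among which counts may be split. Gadd45g, induced by cytokines and stress, had 62.6, 62.4 and 59.6 CPM in stimulated CM cells, against 109, 123 and 106 CPM in stimulated untreated ones, with a log2 fold change over both states of -0.71 ± 0.17 (adjusted p = 0.0456). The log2 fold change was -0.87 ± 0.20 for Asb2 and -0.90 ± 0.22 for Adamts14. Asb2 overlapped in unstimulated cells, where CM libraries held 15.2, 27.4 and 45.2 CPM, against 36.6, 62.3 and 60.8 CPM in untreated ones.

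The count of 26 depended on the fit and on single libraries. With EP2/EP4KO libraries fitted alone 5 genes were called (Retreg1, Arid5b, Scd2, Serpina3g and Gadd45g), and 5 in a fit of the 12 libraries with stimulation as a covariate and 1 CM term, of which 4 were among the 26 (Retreg1, Scd2, Vegfa and Gadd45g). DESeq2 called 50 genes, 25 of them among the 26. With replicate number added as a block, 153 genes were called over all libraries and 69 in the fit of 12. Without replicates 1, 2 and 3 of every EP2/EP4KO group the counts were 6, 0 and 1. Leaving out 1 library at a time gave 6 genes without untreated stimulated replicate 1 and 47 without CM stimulated replicate 1. It gave 13 and 14 without CM stimulated replicates 2 and 3, 11 and 15 without CM unstimulated replicates 2 and 3, 11 without untreated stimulated replicate 2, and 16, 10 and 15 without untreated unstimulated replicates 1, 2 and 3. Retreg1, Arid5b and Serpina3g were called in all 12 of these fits, Vgll4 in 11 of them, and Plekha2, Pmepa1, Timp2 and Vegfa in 10. Ppp1r16b was called in 1 of the 12, Adamts14, Lrrc8d and N4bp2l1 in 2, Asb2, Qrfp and Runx3 in 3, Bcl9l, Cemip2, Gadd45g, P2ry10 and Tnrc6b in 4, Tgfb1 in 5, Abcg1 in 6, Rgs2 and Stat3 in 7, and B4galt1 and Scd2 in 9. Without CM stimulated replicate 1 the call was lost for Tgfb1 (0.43, adjusted p = 0.0876), which had its highest value in that library, and for Abcg1 (1.16, adjusted p = 0.0552), N4bp2l1 (0.83, adjusted p = 0.0675) and Asb2 (-0.83, adjusted p = 0.0552). All 26 genes kept their sign in each of the 12 fits, and Retreg1 ranged from 0.75 to 0.88.

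In unstimulated cells alone no gene was called by edgeR without a replicate block (485 at an unadjusted p under 0.05), and 0 by DESeq2. With replicate number as a block some genes were called, and their count is given with the processing below. The smallest p-values among higher values there were those of Retreg1, at 0.81 ± 0.18, P2ry10, at 0.67 ± 0.16, and Rgs2, at 0.63 ± 0.17, and among lower values those of Bcdin3d, at -1.12 ± 0.30, the activating receptor gene Ncr1, at -0.64 ± 0.18, and Dda1, at -0.68 ± 0.20. Ncr1, which encodes NKp46, had 129, 119 and 136 CPM in unstimulated CM cells, against 177, 234 and 186 CPM in untreated ones, without overlap, although its adjusted p was 0.818 unstimulated and 0.207 over both states.

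In stimulated cells alone 8 genes were called (0.0746% of tested genes), 6 higher (0.0560%) and 2 lower (0.0187%). Scd2 rose by 1.34 ± 0.27, Vegfa by 1.18 ± 0.23, Vgll4 by 0.87 ± 0.15, Arid5b by 0.83 ± 0.17, B4galt1 by 0.63 ± 0.14, and Kansl3, a subunit of the NSL histone acetyltransferase complex, by 0.96 ± 0.21. Serpina3g fell, with a value of -0.86 ± 0.18, as did Tnfsf8, the CD30 ligand gene, at -0.82 ± 0.18. Tnfsf8 had 146, 181 and 210.3 CPM in stimulated CM cells, against 333, 320.0 and 296 CPM in stimulated untreated ones, and each CM library was lower. Fitted alone, the EP2/EP4KO libraries gave 0 calls in this state, and DESeq2 gave 25. Without untreated stimulated replicate 2 the count was 0, without CM stimulated replicates 2 and 3 it was 3 and 2, without untreated stimulated replicate 3 it was 5, and without CM stimulated replicate 1 it was 10. Without that last library Serpina3g (-0.85, adjusted p = 0.0782) and Tnfsf8 (-0.69, adjusted p = 0.178) lost their calls in stimulated cells.

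The difference between the stimulated and the unstimulated CM effect was called for no gene by edgeR without a replicate block (308 at an unadjusted p under 0.05), and for 0 by DESeq2. The counts of 8 and 0 therefore do not show that the states differ. The smallest p-values belonged, among values higher in stimulated cells, to Etv5, mt-Tw and Sipa1, and among lower ones to Plk2, Cox16 and mt-Co1. Etv5 had 0 counts in all 3 stimulated untreated libraries, and 0.792, 3.08 and 3.22 CPM in stimulated CM ones.

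PGE2 alone was compared with the same untreated libraries as CM, and the 26 genes were chosen by their CM value, which by itself favours a smaller PGE2 value and a shared sign. The values therefore stand side by side only as a description. For 25 of the 26 genes the PGE2 value had the sign of the CM value, and for 18 it was under 0.5 of it. It was 0.12 ± 0.14 for Retreg1, 0.00 ± 0.17 for Pmepa1, -0.08 ± 0.12 for Timp2 and 0.02 ± 0.12 for Tgfb1. For Stat3 it was 0.33 ± 0.11, for Rgs2 0.36 ± 0.13, for Vegfa 0.50 ± 0.20 and for Gadd45g -0.51 ± 0.17. None of these PGE2 values was called.

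Set directly against PGE2, CM was called higher for 3 genes in EP2/EP4KO cells (0.0280%) and lower for 0 (901 genes at an unadjusted p under 0.05; DESeq2 called 5 higher and 0 lower). Retreg1 had a log2 fold change of 0.71 ± 0.13 (adjusted p = 0.00728), with 47.3, 56.9 and 70.1 CPM in unstimulated CM cells, against 28.0, 32.1 and 37.9 CPM with PGE2. Timp2 had 0.64 ± 0.12 (adjusted p = 0.00728), with 105, 76.3 and 80.6 CPM in stimulated CM cells, against 57.2, 49.98 and 51.9 CPM with PGE2. Pmepa1 had 0.86 ± 0.17 (adjusted p = 0.0156), with 137, 142 and 202 CPM in stimulated CM cells, against 61.6, 67.9 and 88.8 CPM with PGE2. The smallest p-values among genes lower with CM than with PGE2 were those of Adam8, at -0.55 ± 0.14, Noc2l, at -0.40 ± 0.11, and Serpina3g, at -0.48 ± 0.13. Retreg1 and Timp2 were called in 16 of 18 fits that left out 1 library and Pmepa1 in 13. Without CM unstimulated replicate 3, or without PGE2 unstimulated replicate 1, the count was 0. It was 15 without PGE2 stimulated replicate 3, 11 without CM stimulated replicate 1, 7 without CM unstimulated replicate 1 and 5 without untreated stimulated replicate 1, which enters only through the shared spread. With the EP2/EP4KO libraries alone it was 0.

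The same contrast in cells that keep receptors also gave positive values for Retreg1 and Timp2. CM against PGE2 was 0.68 ± 0.12 for Retreg1 in EP2KO cells (adjusted p = 0.00166) and 0.48 ± 0.13 in WT cells (adjusted p = 0.371). For Timp2 it was 0.50 ± 0.11 in EP2KO cells (adjusted p = 0.0406) and 0.48 ± 0.12 in WT cells (adjusted p = 0.36). Pmepa1 was called in neither of these genotypes. Tgfb1 was higher with CM than with PGE2 in EP2KO cells, at 0.47 ± 0.11 (adjusted p = 0.0438), and stood at 0.51 ± 0.12 in EP2/EP4KO cells (adjusted p = 0.127). In all, CM against PGE2 called 8 genes in EP2KO cells (0.0746%), 6 higher (0.0560%) and 2 lower (0.0187%), and 0 in WT cells, where unstimulated PGE2 has 2 libraries (edgeR; 427 at an unadjusted p under 0.05; 0 by DESeq2).

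**Figure D2:**
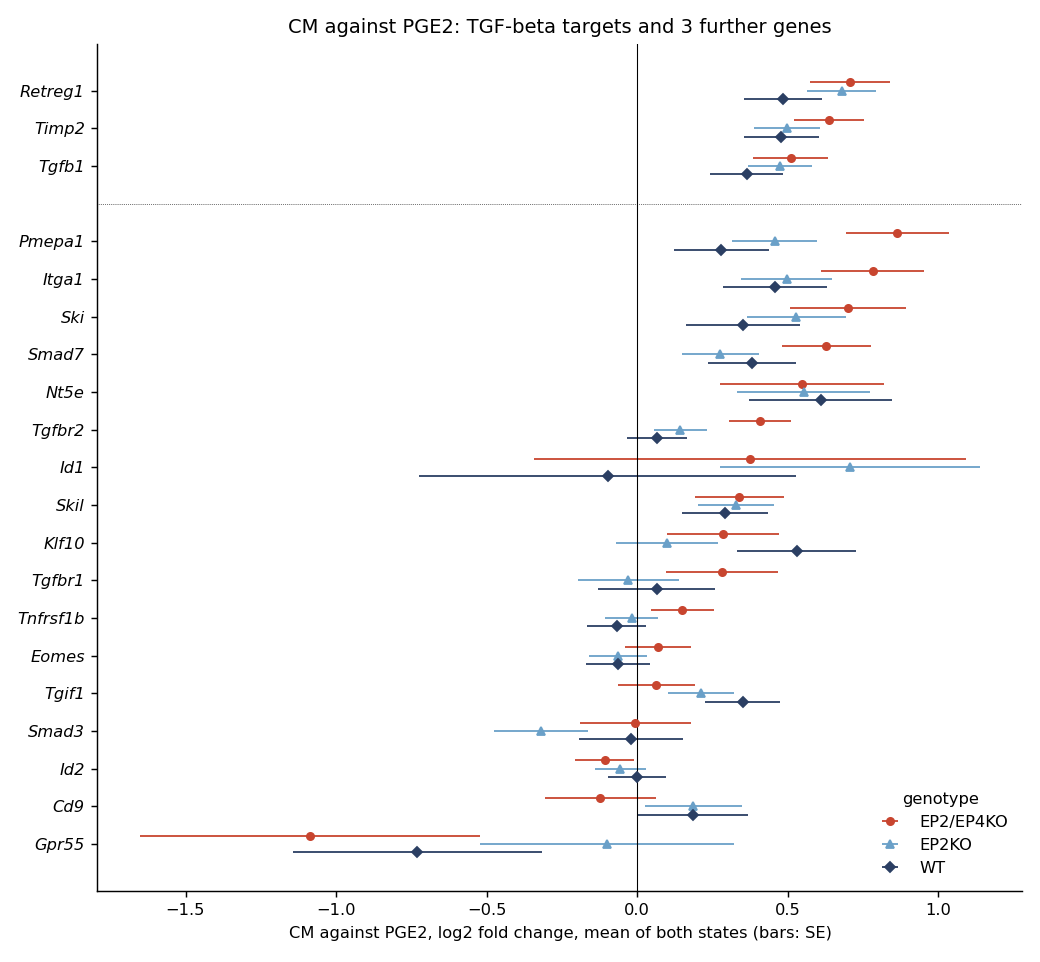
CM against PGE2 as log2 fold change over both states (horizontal axis; points are estimates and bars SE) in EP2/EP4KO, EP2KO and WT cells, for the 17 tested TGF-beta and SMAD genes (below the dotted line) and for Retreg1, Timp2 and Tgfb1. In EP2/EP4KO cells Pmepa1 lies at 0.86, and Retreg1 and Timp2 lie to the right of 0 in all 3 genotypes.

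TGF-beta is known to act on NK cells through SMAD2 and SMAD3, and a list of 25 of its pathway genes and targets held 17 that could be tested, Pmepa1 among them. In EP2/EP4KO cells with CM 1 of the 17 rose and 0 fell, 12 had positive values and the median was 0.22, against 0.00 over all genes. With PGE2 the median was -0.02. Against PGE2, CM again had 1 called and 0 lower, with 13 positive values and a median of 0.28. In EP2KO and WT cells CM against PGE2 called none of the 17, with 11 positive values in each and medians of 0.19 and 0.18. For CM against untreated in EP2/EP4KO cells, the inhibitory SMAD gene Smad7, at 0.51 ± 0.15, and the receptor Tgfbr2, at 0.39 ± 0.10, lay below the threshold. So did the SMAD corepressors Ski, at 0.63 ± 0.19, and Skil, at 0.38 ± 0.15, and the ectonucleotidase Nt5e, at 0.86 ± 0.28. Negative values of CM against untreated were those of Id1, an inhibitor of helix-loop-helix factors, at -0.65 ± 0.68, and the receptor Gpr55, at -0.61 ± 0.60. Id2, at -0.22 ± 0.10, the T-box factor Eomes, at -0.03 ± 0.11, and the tetraspanin Cd9, at -0.03 ± 0.18, were negative too. The integrin gene Itga1, which marks tissue-resident NK cells, had 116, 211 and 207 CPM in unstimulated CM cells, against 68.8, 107 and 134 CPM with PGE2, and a CM against PGE2 value of 0.78 ± 0.17 (adjusted p = 0.0566). Against untreated, CM called 9 of the list higher and 2 lower in EP2KO cells, and 8 higher and 1 lower in WT cells. Over all genes it called 6.45% higher and 7.03% lower in EP2KO, and 8.51% higher and 9.79% lower in WT cells.

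The 26 genes were mostly genes that CM also changed in the other genotypes, whose libraries are separate. Of them 23 were called in the same direction in EP2KO cells, 88.5% of the 26 and 1.59% of the EP2KO calls. In WT cells 22 were, 84.6% of the 26 and 1.12% of the WT calls. Of all tested genes CM called 13.5% in EP2KO and 18.3% in WT cells, either way. PGE2 alone also called 23 of the 26 in WT cells, 22 of them in the same direction, against 14.2% of all tested genes either way. Retreg1 was at 0.82 ± 0.13 in EP2/EP4KO, 0.80 ± 0.12 in EP2KO and 0.92 ± 0.12 in WT cells, and the EP2/EP4KO minus WT difference was -0.10 ± 0.18 (adjusted p = 0.943). For Arid5b that difference was -0.12 ± 0.15, for Runx3 0.03 ± 0.16 and for Ppp1r16b 0.01 ± 0.18, none of them called. Abcg1, Scd2 and Timp2 were called in neither EP2KO nor WT cells. Timp2 stood at 0.14 ± 0.11 in EP2KO and 0.02 ± 0.11 in WT cells, where PGE2 alone lowered it, with -0.36 ± 0.11 in EP2KO (adjusted p = 0.0243) and -0.46 ± 0.12 in WT cells (adjusted p = 0.00593). The Timp2 difference between EP2/EP4KO and WT was 0.54 ± 0.16 (adjusted p = 0.0548) and was not called. Abcg1 stood at 0.51 ± 0.23 in EP2KO and 0.53 ± 0.23 in WT cells, and Scd2 at 0.38 ± 0.18 and 0.45 ± 0.18 in the same order. Their EP2/EP4KO minus WT differences were not called either, with an adjusted p of 0.53 for Abcg1 and 0.58 for Scd2, so a response particular to EP2/EP4KO cells was not shown for these 3 genes.

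**Figure D3:**
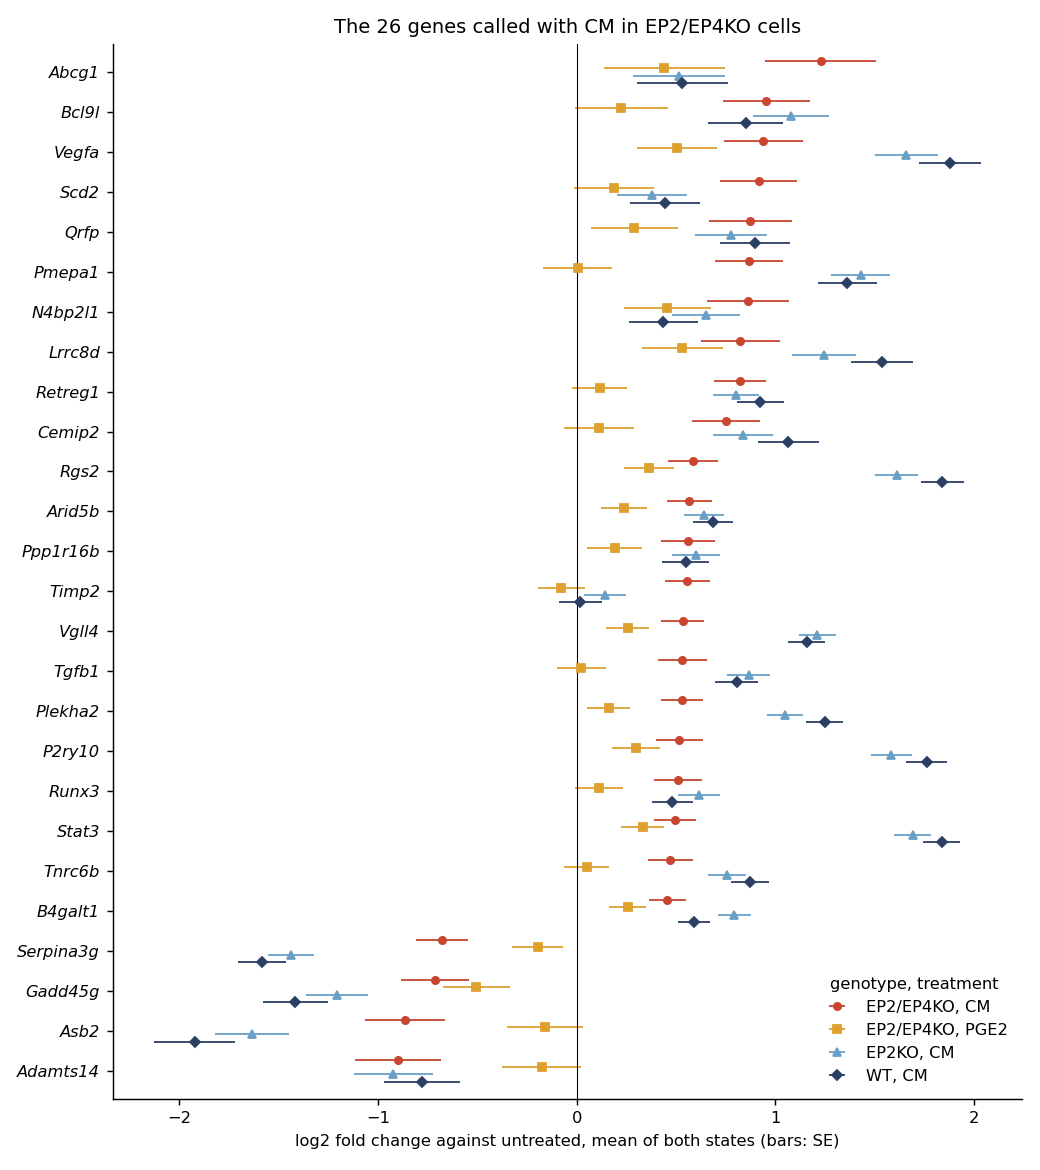
Log2 fold change against untreated cells over both states (horizontal axis; bars are SE) of the 26 genes that CM changed in EP2/EP4KO cells, for CM and PGE2 in EP2/EP4KO, CM in EP2KO and CM in WT cells. Values of Retreg1, Arid5b, Runx3 and Ppp1r16b with CM lie close together in the 3 genotypes, Stat3, Rgs2 and P2ry10 lie far higher in EP2KO and WT cells, and Timp2 lies above 0 with CM in EP2/EP4KO cells, at 0.56.

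For 8 of the 26 genes the CM effect in EP2/EP4KO was called smaller in size than in WT cells: Stat3, Rgs2, P2ry10, Vegfa, Plekha2, Vgll4, Serpina3g and Asb2. That is read against 193 genes with a called EP2/EP4KO minus WT difference among all tested (1.80%), 87 of them positive (0.811%) and 106 negative (0.989%). Stat3 had 0.49 ± 0.11 in EP2/EP4KO and 1.84 ± 0.09 in WT cells, a difference of -1.34 ± 0.14 (adjusted p = 1.03e-09). Rgs2 had 0.59 ± 0.13 in EP2/EP4KO and 1.84 ± 0.11 in WT cells, a difference of -1.25 ± 0.17, and Serpina3g had -0.68 ± 0.13 in EP2/EP4KO and -1.58 ± 0.12 in WT cells, a difference of 0.91 ± 0.18. Against EP2KO cells 88 genes differed (0.821%), 37 positive (0.345%) and 51 negative (0.476%), and of the 26 these were Stat3, Rgs2, P2ry10, Vgll4 and Serpina3g. EP2/EP4KO libraries also differ from the rest in sex: Xist stood at no more than 63.6 CPM in the 12 libraries, against 478 to 939.9 CPM in EP2KO and WT libraries, so sex, line and genotype cannot be told apart in these differences. Within EP2/EP4KO, Xist ran from 33.1 to 63.6 CPM in CM and had a median of 38.4 and a maximum of 59.3 CPM in untreated libraries.

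By contrast, 4 genes with large called losses of response had values from -0.08 to 0.59 in EP2/EP4KO cells. The efflux pump Abcb1b had -0.08 ± 0.20 in EP2/EP4KO and 1.69 ± 0.17 in WT cells, transferrin (Trf) 0.20 ± 0.19 and 1.88 ± 0.16 in the same order, and the triglyceride enzyme Dgat1 0.38 ± 0.19 and 2.02 ± 0.16. Ier5l, an immediate early response gene, had 0.59 ± 0.34 in EP2/EP4KO and 2.89 ± 0.27 in WT cells. On the other side, the growth factor gene Pdgfa had -0.17 ± 0.14 in EP2/EP4KO and -1.55 ± 0.13 in WT cells, and the TNF family ligand Tnfsf14 -0.38 ± 0.19 and -1.61 ± 0.18. The immediate early genes Egr1 and Egr3 had -0.05 ± 0.16 and -0.16 ± 0.17 in EP2/EP4KO, against -1.41 ± 0.15 and -1.52 ± 0.16 in EP2KO cells.

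**Figure D4:**
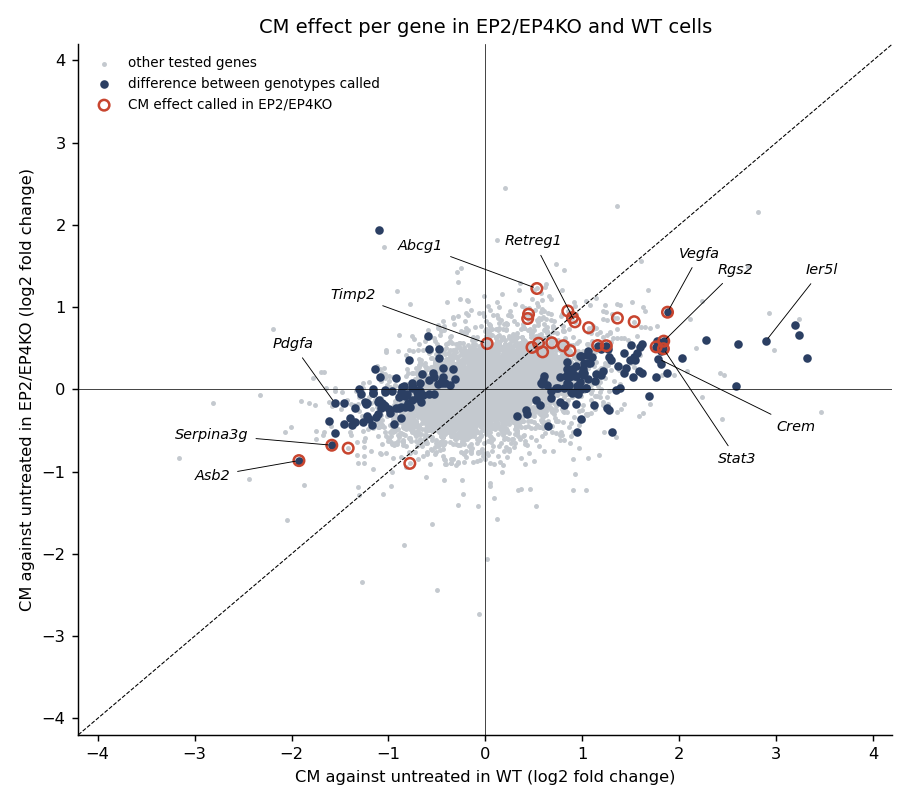
CM against untreated as log2 fold change in EP2/EP4KO cells (vertical) and WT cells (horizontal), 1 point for each of 10723 tested genes; the dashed line marks equal effects. Dark blue points (193) have a called difference between the genotypes and red rings mark the 26 genes called in EP2/EP4KO; Stat3 and Rgs2 lie far below the line, Retreg1 lies near it and Abcg1 and Timp2 lie above it.

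Across all 10723 genes the CM effect in EP2/EP4KO cells correlated with that in WT cells at Pearson's r = 0.417 and with that in EP2KO cells at 0.366, while EP2KO and WT cells gave 0.710, as descriptions over genes within these libraries. The 913 genes that CM raised in WT cells had a median log2 fold change of 0.21 in EP2/EP4KO, 0.46 in EP2KO and 0.62 in WT cells, and 85.9% were positive in EP2/EP4KO cells, against 50.4% of all genes. With PGE2 the median of these genes in EP2/EP4KO cells was 0.05. The 1050 genes that CM lowered in WT cells had a median of -0.17 with CM and -0.03 with PGE2 in EP2/EP4KO cells, against -0.54 with CM in WT cells, and 87.3% were negative with CM in EP2/EP4KO cells. Both sets were chosen by their WT value, which by itself favours a larger size in WT cells. The 692 genes that CM raised in EP2KO cells had medians of 0.23 in EP2/EP4KO, 0.63 in EP2KO and 0.58 in WT cells. For the 754 genes that it lowered there, the medians were -0.16, -0.53 and -0.50 in the same order.

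Gene lists are read beside the 0.242% called over all genes and a median of 0.00. Of 29 tested targets of cAMP, protein kinase A and CREB, 2 rose in EP2/EP4KO cells with CM (Vegfa and Rgs2) and 0 fell. With CM 24 had positive values and the median was 0.40. With PGE2 none was called, but 22 of the 29 had positive values, with a median of 0.19, against 5389 positive values among all 10723 genes. Both treatments share the untreated libraries, and the cause of the PGE2 values of these targets was not tested. In WT cells 16 of them rose with CM and 1 fell, with a median of 0.51. Over all genes 8.51% rose and 9.79% fell there. For 9 of the 29 the CM effect was called lower in EP2/EP4KO than in WT cells, against 0.989% of all genes. Crem, an inducible repressor of CREB, had 85.7, 134 and 105 CPM in unstimulated CM cells, against 78.8, 101 and 77.1 CPM in untreated ones, and overlapped. Its log2 fold change was 0.37 ± 0.16 in EP2/EP4KO (adjusted p = 0.463), 1.83 ± 0.14 in EP2KO and 1.79 ± 0.13 in WT cells. The chemokine receptor gene Cxcr4 was at 0.75 ± 0.23, the AP-1 member Fosl2 at 0.56 ± 0.16 and the phosphodiesterase Pde4b at 0.49 ± 0.13 in EP2/EP4KO cells, none called.

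No gene of ribosome biogenesis was called among 25 tested, but all 25 had negative values with CM in EP2/EP4KO cells, with a median of -0.30. PGE2 gave a median of -0.03 there, and CM against PGE2 a median of -0.24, again with 25 negative values. In EP2KO cells CM lowered 25 of 25 (median -0.71) and in WT cells 24 (median -0.69). Over all genes it lowered 7.03% in EP2KO and 9.79% in WT cells. The nucleolar GTPase gene Gnl3 was at -0.42 ± 0.11 in EP2/EP4KO, -0.90 ± 0.10 in EP2KO and -0.94 ± 0.10 in WT cells, and Noc2l, another nucleolar gene, at -0.39 ± 0.11, -0.51 ± 0.09 and -0.62 ± 0.10 in the same order.

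No cytotoxicity gene was called with CM in EP2/EP4KO cells. Of 24 tested 0 rose and 0 fell, with a median of 0.02, while 8 fell in WT cells, where 9.79% of all genes fell. Granzyme B (Gzmb), whose promoter also drives the Cre, was at -0.45 ± 0.19 (adjusted p = 0.462) and perforin (Prf1) at -0.36 ± 0.15 in EP2/EP4KO cells, against -1.08 ± 0.16 and -0.76 ± 0.13 in WT cells. Of 21 NK cytokines and chemokines 2 rose, Vegfa and Tgfb1, and 0 fell, with a median of -0.08. In WT cells, where 8.51% of all genes rose and 9.79% fell, 3 rose and 11 fell, with a median of -0.63. Ifng was at -0.08 ± 0.15, Xcl1 at -0.09 ± 0.14 and Ccl5 at -0.08 ± 0.17 in EP2/EP4KO cells. For Ifng the EP2/EP4KO minus WT difference was called, at 0.75 ± 0.20 (adjusted p = 0.026), and for Ccl5 it was 0.12 ± 0.22 (adjusted p = 0.949). In these bulk libraries a change in the share of a cell type and a change in RNA per cell cannot be told apart.

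**Figure D5:**
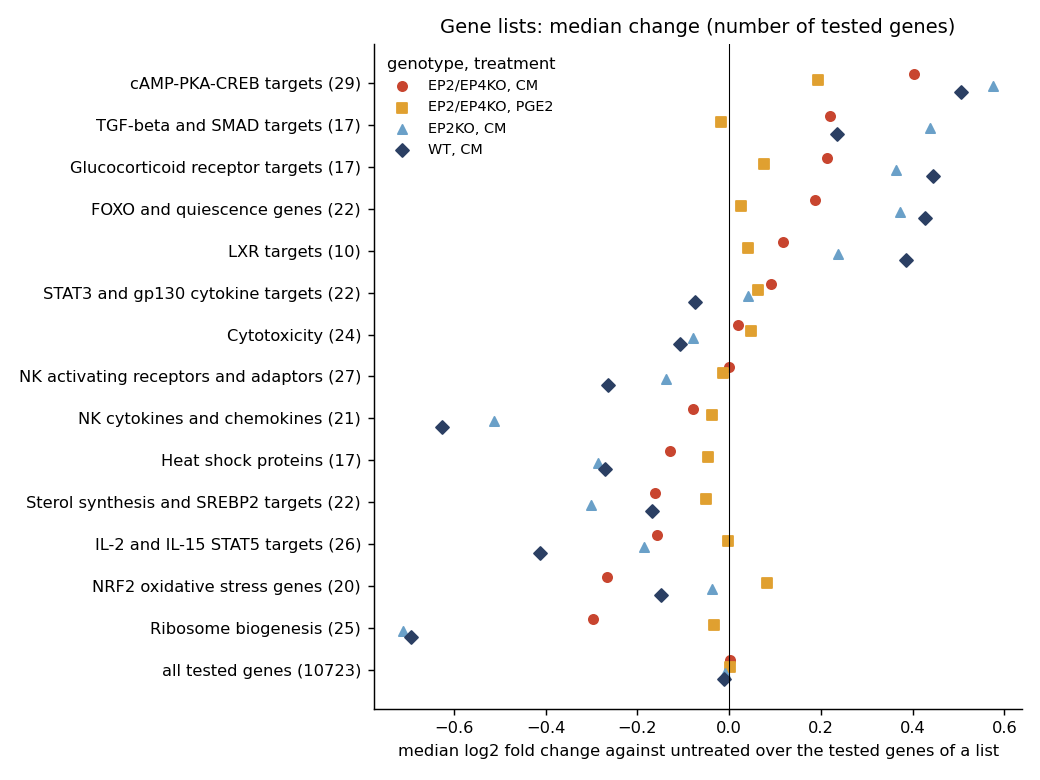
Median log2 fold change against untreated over the tested genes of 14 gene lists and of all 10723 tested genes (bottom), for CM and PGE2 in EP2/EP4KO, CM in EP2KO and CM in WT cells; each point is a median, without error. In EP2/EP4KO cells cAMP targets with CM lie at 0.40 and ribosome biogenesis at -0.30, and NK cytokines lie near 0 at -0.08 but at -0.63 in WT cells.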

How the data were processed

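Libraries were made by 3' mRNA sequencing with sample barcodes and unique molecular identifiers, per the labels' protocols, which do not say whether the counts are of molecules or of reads. The authors deposited raw counts per gene symbol for 64 libraries, with GRCm38 (mm10) and DESeq2 named in the submitters' processing notes; the sources used here do not give the aligner, annotation or strand setting, so close paralogs and overlapping genes are uncertain. Members and gene lists were chosen with earlier results of these data known. Counts were filtered (filterByExpr, minimum 10; 10723 genes kept) and fitted by edgeR's quasi-likelihood method over all 64 libraries with 18 group means (edgeR 4.0.16, limma 3.58.1, R 4.3.3); DESeq2 1.42.0 was an alternative. P-values were adjusted by Benjamini-Hochberg over all tested genes; log2 fold changes carry the SE of the fit, and scripts were checked on simulated counts. Named were the 12 largest called rises and all falls whose average log2 CPM reached 4 (5 each way for other comparisons), called list members, the 3 smallest p-values where none was called, and 10 preset genes. Plekha2, P2ry10, Vgll4, B4galt1, Tnrc6b and Lrrc8d, and list members below the threshold, were named after their values were seen. All 26 called symbols had 1 position in GENCODE M21. A gene that the naming rule picked is not reported here. No set test was run.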

Additional observations from a re-analysis of the deposited data

Results flagged for a closer look

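The CM effect differed between genotypes for each gene named here, by edgeR's test of the difference itself, given as EP2/EP4KO minus the other genotype on the log2 scale. Sex also separates EP2/EP4KO from the other libraries, and its part in these values cannot be told apart from that of genotype.

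Against WT cells the difference was negative for Ier5l (-2.31), Abcb1b (-1.77), Trf (-1.68), Dgat1 (-1.65), Stat3 (-1.34), Rgs2 (-1.25), P2ry10 (-1.25), Vegfa (-0.94), Plekha2 (-0.72) and Vgll4 (-0.62). These genes rose with CM in WT cells. It was positive for Pdgfa (1.39), Il27ra (1.31), Plk3 (1.30), Gdpd5 (1.24), Tnfsf14 (1.23), Asb2 (1.06) and Serpina3g (0.91), which fell with CM in WT cells.

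Against EP2KO cells the difference was negative for Dgat1 (-1.63), Camk4 (-1.47), Crem (-1.46), Abcb1a (-1.38), Stat3 (-1.20), P2ry10 (-1.07), Rgs2 (-1.02) and Vgll4 (-0.68). It was positive for Egr1 (1.37), Egr3 (1.36), Pdgfa (1.36), Chn2 (1.06), Itih5 (1.00) and Serpina3g (0.76), which fell with CM in EP2KO cells.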

How the results depend on the processing

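With 3 libraries a group, the number of calls in EP2/EP4KO cells moved with the processing, while no result reversed. CM against untreated over both states (26 genes) gave 50 by DESeq2, 5 with EP2/EP4KO libraries alone, 5 with 12 libraries and stimulation as a covariate, and 0 to 47 when libraries or replicates were left out (6, 0 and 1 without replicates 1, 2 and 3 of every EP2/EP4KO group). In stimulated cells (8) DESeq2 gave 25, EP2/EP4KO libraries alone 0, no filter 21, and leaving out libraries 0 to 10. The stimulation dependence (0) gave 1 without a filter. CM against PGE2 (3) gave 5 by DESeq2, 0 with EP2/EP4KO libraries alone and 0 to 15 when libraries were left out. The difference from EP2KO (88) gave 142 by DESeq2 65 to 146 when 1 library was left out (146 without EP2KO untreated stimulated replicate 4) and 45 to 88 when 1 replicate number was left out of every EP2/EP4KO group (53 and 45 without numbers 2 and 3). The difference from WT (193) ranged from 114 to 234. The cause of these moves was not tested.

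Replicate numbers do not pair the samples by the labels. The 18 same-numbered pairs correlated at 0.0234 to 0.443 (median 0.213), 4 of them at or under 0.1. Differently numbered pairs had a median of -0.118, and 11 of 12 libraries correlated best with their own number. With a replicate block the counts were 153 (CM against untreated), 9 (unstimulated), 70 (stimulated), 1 (stimulation dependence), 106 (CM against PGE2), 273 (difference from EP2KO) and 380 (difference from WT), and 69 in the fit of 12 libraries with the block; all 26 genes were among the 153.

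CM in EP2KO (1446) and in WT (1963) stayed within 1.5 times in each alternative run, and PGE2 in EP2/EP4KO stayed at 0. For genes called as reported, 241 recomputed values in other settings and 887 with libraries left out stayed past the threshold, while 71 and 291 did not.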

Other observations

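Lists not described above gave few calls in EP2/EP4KO cells with CM. Glucocorticoid receptor targets (0 of 17 called, median 0.21) and FOXO and quiescence genes (0 of 22, median 0.19) had positive medians. In WT cells 7 of the 17 and 13 of the 22 rose, where CM raised 8.51% and lowered 9.79% of all genes. NRF2 oxidative stress genes (0 of 20, median -0.27) and heat shock proteins (0 of 17, median -0.13, with 2 positive values) had negative ones. Of 27 NK activating receptors and adaptors 0 were called, against 1 higher and 10 lower in WT cells. Type I interferon-stimulated genes (0 of 22, median -0.02) and nuclear-encoded respiratory chain genes (0 of 38, median -0.08) had medians near 0, with 34 negative values among the respiratory chain genes. The 6 tested neutrophil markers had a median of 0.41 in unstimulated and -0.88 in stimulated cells, with none called, and their part in other results was not tested.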
